A study of Mus musculus with 3 samples.

Results

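Cones carrying the Pde6ccpfl1 allele were set beside cones of Cnga3-/- mice. The data were gene counts from single wells of 2 sorted 96-well plates, 1 for each mutant line. Wells were chosen by the plate named in their column and were kept where 500 genes or more were counted and mitochondrially encoded genes took no more than 30% of the counts. Of the 208 wells in the series, 131 were kept this way, 61 of 71 on the Pde6ccpfl1 plate and 70 of 76 on the Cnga3-/- plate. A further 52 kept wells came from another plate of wildtype cones carrying the Chrnb4-GFP reporter, which marks cones, and their values are given as a background. All 3 lines were labelled postnatal day 12 and retina, and the cells were sorted as live GFP-positive cones after papain digestion. The 2 mutant libraries are named Cnga3-GFP and Pde6c-GFP, and their labels do not name the promoter that drives GFP in them, the strain or the number of animals. The well names also carry a tag, P10 on the Pde6ccpfl1 plate, P08 on the Cnga3-/- plate and P11 on the wildtype plate. The meaning of the tag is not given in the sources used here. If the tag is an age, age and genotype cannot be told apart. The series as a whole addresses how cones move in healthy and in degenerating retina. With 1 plate for each genotype there is no replicate check, and genotype, plate, sort and library preparation cannot be told apart. Ratios below are therefore descriptions of 2 libraries, called by their labels throughout.

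Both genes act in the same light response. In a cone, light acting through an opsin and the G protein transducin activates phosphodiesterase 6, of which Pde6c encodes the catalytic subunit, and this enzyme breaks down cyclic GMP. The fall in cyclic GMP closes a cation channel of the outer segment, of which Cnga3 encodes the main subunit. Loss of the phosphodiesterase leaves cyclic GMP high and channels open, whereas loss of the channel subunit removes the current that cyclic GMP controls. Cones of both lines are known to lose light responses and to degenerate.

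Kept wells held 295011 counts on the Pde6ccpfl1 plate and 335499 on the Cnga3-/- plate. The median well had 3796 counts (1106 to 16039) and 1376 genes in Pde6ccpfl1, and 4056.5 counts (1134 to 16935) and 1473.5 genes in Cnga3-/-. Levels are given as CPM, a gene's counts scaled to the library or well total. One count was worth 263 and 247 CPM in a median well, so that a typical gene was counted in a minority of wells. All 10 and 6 wells left out had fewer than 500 genes. Intervals are exact 95% intervals of counting error only. They hold for that error if counts are separate molecules, which is not known. Spread between wells and between plates is left out. An interval that excludes equal levels therefore does not show a difference between genotypes.

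The targeted genes were at the lower edge of detection. Pde6c had 2 counts in the Pde6ccpfl1 library, 5 in Cnga3-/- and none in wildtype. Cnga3 had 3 counts in Pde6ccpfl1, 13 in the Cnga3-/- library (8 of 70 wells) and 22 in wildtype. The Cnga3-/- library was therefore not without Cnga3 counts, and it held more than the Pde6ccpfl1 library. Counts are for whole genes, and a count outside the altered part of a gene does not check a label, so neither gene settled which library was which. Chrnb4, the gene whose regulatory sequence drives the wildtype reporter, had 36, 75 and 71 counts in Pde6ccpfl1, Cnga3-/- and wildtype.

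The cone identity of the wells was checked with 4 markers: Opn1sw, the short-wavelength opsin, Arr3, cone arrestin, Gngt2, the gamma subunit of cone transducin, and Pde6h, the inhibitory subunit of the cone phosphodiesterase. At least 1 of the 4 was counted in 53 of 61 Pde6ccpfl1 wells (86.9%, 75.8 to 94.2) and in 47 of 70 Cnga3-/- wells (67.1%, 54.9 to 77.9). Depth was then made equal by drawing 1400 counts from each well, which left out 7 and 5 shallower wells. The shares were then 48.1% of 54 wells (34.3 to 62.2) and 50.8% of 65 wells (38.1 to 63.4), against 12.5% of 48 wildtype wells (4.73 to 25.2). Summed over 11 cone markers and divided by exon length, the level was 20.3 and 21.3 CPM per kb in the mutants, against 5.20 in wildtype. The 1133 olfactory receptor genes, which serve as a level for genes not expected in cones, lay at 4.17 CPM per kb in Pde6ccpfl1, 3.61 in Cnga3-/- and 4.51 in wildtype. The wildtype library, although labelled as cones, had no count of Opn1sw, Gngt2 or Gnat2. Both mutant libraries carried cone markers above the olfactory receptor level and to a like extent. Rod markers were present at 11.1 and 13.3 CPM per kb, with Sag, the rod arrestin, at 30 and 36 counts. Markers of bipolar cells lay at 3.16 and 3.09 CPM per kb, those of amacrine cells at 2.46 and 2.54 and those of retinal ganglion cells at 3.40 and 3.31. Muller glia markers lay at 2.20 and 2.65, pigment epithelium at 1.81 and 1.69, endothelium and pericytes at 4.69 and 4.73, and progenitor and cell cycle genes at 5.04 and 6.59. Horizontal cell markers lay at 7.56 and 6.46, astrocyte markers at 6.91 and 5.29 and microglia markers at 6.05 and 5.20. Erythrocyte markers had 0 and 5 counts.

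Before any gene is compared, a feature that both plates share has to be described. Counts followed the position of the well on the plate. Over 61 positions kept on both plates, each of the 61 Pde6ccpfl1 wells was most like the Cnga3-/- well at its own position, by the correlation over 1693 genes of log-scaled counts centred on each gene's mean. The median correlation of wells at the same position was 0.35 (0.17 to 0.58), and that of wells at other positions was -0.006, with a highest value of 0.09. The same held against wildtype for 43 of 43 Pde6ccpfl1 wells. The total count of a well also followed position, with a correlation of 0.82 between the mutant plates. No pair of wells was identical. These correlations describe the plates and carry no test.

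The same pattern showed gene by gene. The median gene had 37.9% of its counts (quartiles 26.2 and 46.8) at a single position, and for 1459 genes (86.2%) the highest well lay at the same position on both plates. Olfr845 is an example, with 266 of its 488 Pde6ccpfl1 counts and 37 of its 54 Cnga3-/- counts at position H01. Over positions, a gene's values on the 2 plates correlated with a median of 0.37 (quartiles 0.27 and 0.47). The 8 compared genes of cone phototransduction had a median of 0.36 (0.07 to 0.66) and the 7 rod genes 0.30 (0.01 to 0.55). Values under 0.2 were found for Opn1sw (0.07), Gngt2 (0.14), Pde6h (0.19) and Sag (0.01). These genes also had few counts. The origin of the shared pattern was not tested. Because of it, genes are also given without their highest position, which means over the shared positions less the one with the most counts of that gene, and wells of a plate are not read as repeats of a genotype.

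**Figure D1:**
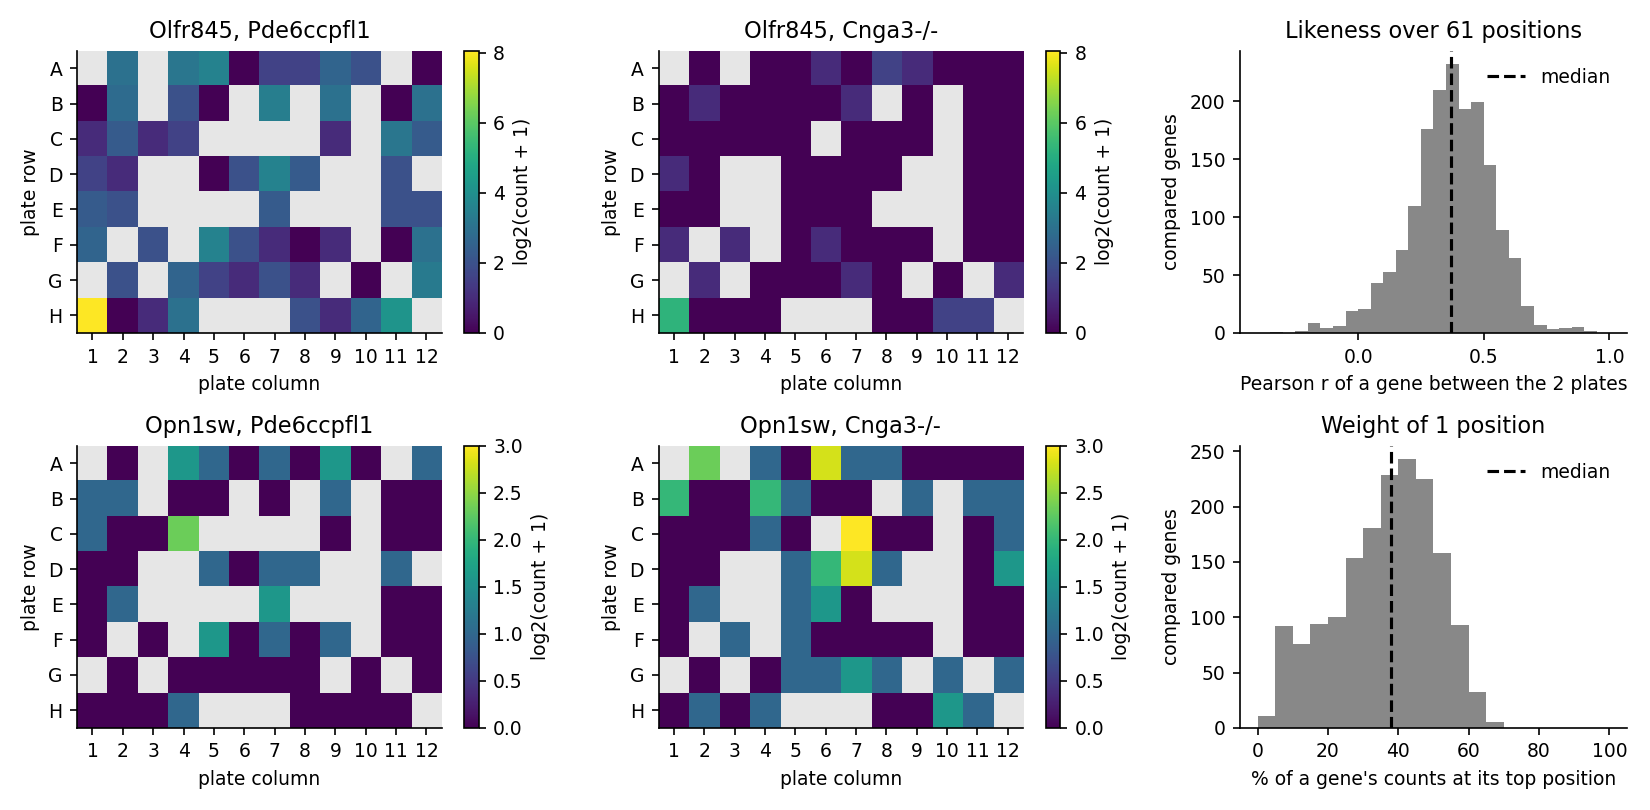
Counts by plate position of Olfr845 and Opn1sw on the mutant plates (colour, log2 of count plus 1, grey where no kept well) and, over 1693 compared genes, histograms of the correlation between plates over positions and of the percent of a gene's counts at its top position. Olfr845 peaks at position H01 on both plates, Opn1sw has no shared peak, and the medians are 0.37 and 37.9%.

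Across genes the libraries were close. The comparison took genes with 50 counts or more in the mutant libraries together that were counted in 20% or more of the wells of either, which held for 1693 of 31053 genes. The median log2 ratio of Pde6ccpfl1 over Cnga3-/- was 0.07 (quartiles -0.44 and 0.50), and 1426 genes (84.2%) lay within 2-fold. At least 2-fold higher in Pde6ccpfl1 were 109 genes (6.44% of those compared), and at least 2-fold lower were 158 (9.33%). At least 4-fold apart were 10 genes on the higher and 31 on the lower side, and the counting interval lay wholly past 2-fold for 24 and 47. Without each gene's highest position the split turned to 190 higher and 134 lower, and 99 of the 109 and 113 of the 158 genes remained at least 2-fold apart. With size factors from the median of gene ratios in place of library totals, which moved the median from 0.07 to -0.12, the split was 67 higher and 234 lower. Within each plate, odd-numbered and even-numbered wells differed far more than the plates did. Of genes with at least 50 counts on a plate, 56.5% of 736 in Pde6ccpfl1 and 65.7% of 849 in Cnga3-/- were at least 2-fold apart between the odd and the even wells. For 581 of 614 genes the odd and even wells differed in the same direction on both plates.

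The Cnga3-/- plate had 9 kept wells at positions where the Pde6ccpfl1 plate had no kept well. These wells held 6.08% of the Cnga3-/- counts. The median compared gene had 3.45% of its Cnga3-/- counts there, and the median of the 158 lower genes had 5.66%. With the 61 shared positions only, 94 of the 109 higher and 137 of the 158 lower genes remained at least 2-fold apart. Both sides thus lost genes by this step.

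**Figure D2:**
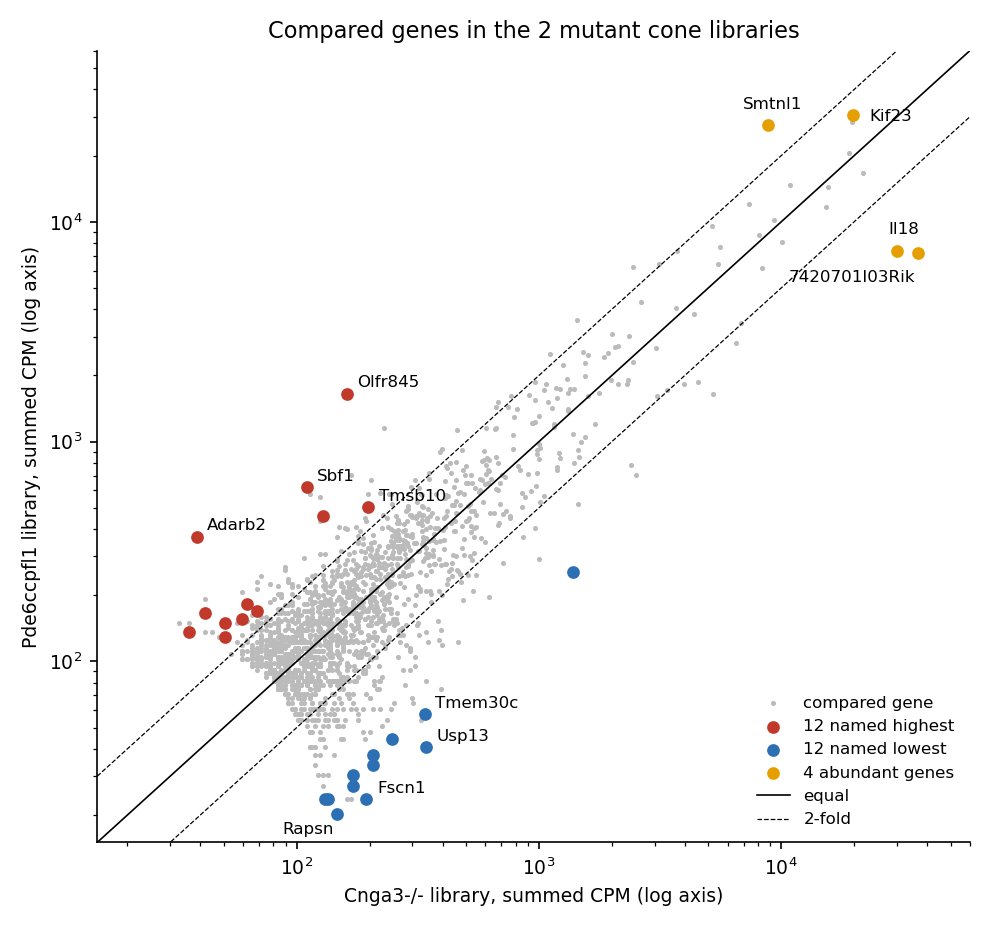
Summed CPM of the 1693 compared genes in the Cnga3-/- library (x, log axis) and the Pde6ccpfl1 library (y, log axis), with the solid line at equal levels and dashed lines at 2-fold. Of the compared genes, 84.2% lie between the dashed lines, with the 12 named highest, the 12 named lowest and 4 abundant genes in colour.

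The genes highest in Pde6ccpfl1 by the naming rule did not form one family. All 12 were above wildtype too, which lay below both mutants for 9 and between them for 3. They were Olfr845, Adarb2, Sbf1, Fblim1, Nfyb, B3gnt9, Myo18b, Rnf122, Osmr, Tmsb10, Mir124a-1hg and Rasgef1b, with log2 ratios from 3.36 down to 1.31. All were counted in a larger share of Pde6ccpfl1 wells, 29.5% to 83.6%, than of Cnga3-/- wells, 10.0% to 48.6%. The rule required both the 2-fold difference and the same direction in the share of wells, so that neither is a result.

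Olfr845, an odorant receptor on chromosome 9 (19336457 to 19341718, GRCm38), had the largest ratio of all. It had 488 counts in Pde6ccpfl1, 54 in Cnga3-/- and none in wildtype. Its counts lay in 51 of 61 and 15 of 70 wells, with a median well at 762 CPM (0 to 83047) against 0 (0 to 15283). A single well stood far above the rest on each plate, at the same position. The summed level was 10.3-fold higher (7.75 to 13.9), and the log2 ratio was 3.36 with all wells and 3.81 without position H01. Pde6ccpfl1 was the higher plate at 51 of the 61 positions and Cnga3-/- at 1.

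Adarb2 (chromosome 13, 8202866 to 8768747) encodes a brain member of the adenosine deaminase family that is known to lack editing activity. It had 109 counts in Pde6ccpfl1, 13 in Cnga3-/- and 69 in wildtype, with 61 of the 109 in 1 well. Its 9.54-fold higher level (5.35 to 18.5) set Cnga3-/- apart as the low library, since wildtype was also well above it. Without its highest position the log2 ratio was 2.91.

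Sbf1 (chromosome 15, 89288236 to 89315311) encodes a myotubularin-related protein without phosphatase activity. It had 183, 37 and 19 counts in Pde6ccpfl1, Cnga3-/- and wildtype, in 72.1% and 28.6% of mutant wells. The median well was at 312 CPM (0 to 18629) against 0 (0 to 3120), and the ratio was 5.62 (3.93 to 8.24). Its log2 ratio of 2.49 was 2.19 without position E01, which held 81 of the 183 counts.

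Several of the higher genes act at the membrane or in signalling. Osmr, a receptor subunit for the cytokine oncostatin M, had 46 counts in 25 Pde6ccpfl1 wells, 20 in 11 Cnga3-/- wells and 16 in wildtype. Its ratio was 2.62 (1.52 to 4.67), and 9 counts lay in the same position on each plate. B3gnt9, a glycosyltransferase of the Golgi, was spread widely, with 135 against 43 counts, at most 7 and 5 in a well, and a log2 ratio of 1.84 (1.33 to 2.37). Rnf122, a ubiquitin ligase with a RING domain, had 54 against 21 counts, and 39 in wildtype. Rasgef1b, an exchange factor for Ras-like GTPases, had 50 against 23 and 17 in wildtype.

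Actin-related genes among the higher 12 were Tmsb10, Fblim1 and Myo18b. Tmsb10, thymosin beta 10, which binds actin monomers, had 148 counts in 82.0% of Pde6ccpfl1 wells, 66 in 48.6% of Cnga3-/- wells and 6 in wildtype. No well held more than 11 of its counts, the plates did not resemble each other over positions (correlation 0.06), and Pde6ccpfl1 was higher at 43 positions and Cnga3-/- at 13. Its ratio of 2.55 (1.90 to 3.46) thus rested on many wells, with a median well at 533 CPM (0 to 4292) against 0 (0 to 1606). After thinning it was counted in 42.6% against 27.7% of wells, and the log2 ratio of the thinned counts was 0.59. Fblim1, an adaptor of filamin at cell adhesions, had 49, 14 and 1 counts in Pde6ccpfl1, Cnga3-/- and wildtype, and Myo18b, an unconventional myosin of muscle, had 44, 17 and 2.

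Nuclear and noncoding genes were Nfyb, a subunit of the CCAAT-binding factor NF-Y, and Mir124a-1hg, a host transcript of the neuronal microRNA miR-124. Nfyb had 40 against 12 counts and 32 in wildtype. Mir124a-1hg had 38 counts in 37.7% of Pde6ccpfl1 wells and 17 in 20.0% of Cnga3-/- wells, with none in wildtype. Its highest wells held 4 and 3 counts, and its log2 ratio was 1.35 (0.49 to 2.26). Counts are for the host transcript and say nothing of the mature microRNA.

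The 12 genes lowest in Pde6ccpfl1 had 6 to 75 counts there and 44 to 462 in Cnga3-/-, with log2 ratios from -3.07 to -2.44. They were Usp13, Fscn1, Rapsn, Mcpt8, Arhgap25, Tmem30c, Trdn, Wdr27, Tmem110, Extl3, Sult2b1 and Dnaaf3. Wildtype lay between the mutants for 9 and above both for 3. They were counted in 8.20% to 44.3% of Pde6ccpfl1 wells and 25.7% to 82.9% of Cnga3-/- wells. For 6 of the 12 the highest Cnga3-/- well lay at a position where the Pde6ccpfl1 well had been left out for too few genes. In each of these 6 the left-out Pde6ccpfl1 well and the wildtype well at that position were also the highest of their plates.

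Fscn1 (chromosome 5, 142960343 to 142973185), fascin, which bundles actin filaments, is one of these 6. It had 7 counts in Pde6ccpfl1, 65 in Cnga3-/- and 46 in wildtype, and was 8.17-fold lower (3.75 to 21.1). Of the 65 counts, 29 lay at positions not kept in Pde6ccpfl1, and over the shared positions its log2 ratio was -2.27 in place of -3.03. The same step took Mcpt8, a protease of basophils, from -2.65 to -1.86, and Arhgap25, a GTPase-activating protein of blood cells, from -2.60 to -1.71. It took Trdn, triadin of the muscle calcium release complex, from -2.50 to -1.42. Tmem110, a membrane protein of the endoplasmic reticulum, moved from -2.48 to -1.86, and Extl3, a heparan sulfate glycosyltransferase, from -2.47 to -1.62. All 6 stayed more than 2-fold lower.

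Over the shared positions the other 6 had log2 ratios from -3.13 for Usp13 to -2.47 for Dnaaf3. Usp13 (chromosome 3, 32817546 to 32938071), a deubiquitinating enzyme, had 12, 115 and 27 counts in Pde6ccpfl1, Cnga3-/- and wildtype. Position C03 alone held 65 of the 115 Cnga3-/- counts and 1 Pde6ccpfl1 count, and without it the log2 ratio moved from -3.07 to -2.01. Dnaaf3 (chromosome 7, 4522933 to 4532453), a factor that assembles the dynein arms of motile cilia, had 75, 462 and 176 counts, with a median well at 0 CPM (0 to 4773) in Pde6ccpfl1 and 608 (0 to 37709) in Cnga3-/-. Cnga3-/- was the higher plate at 46 of the 61 positions and Pde6ccpfl1 at 6. Position D06 held 34 of the 75 and 262 of the 462 counts, and the log2 ratio moved from -2.44 (-2.81 to -2.08) to -2.06 without it. Rapsn (chromosome 2, 91035620 to 91045729), rapsyn, which clusters acetylcholine receptors at the neuromuscular junction, had 6, 49 and 9 counts, in 8.20% and 35.7% of mutant wells. Its log2 ratio was -2.84, and -2.69 without its highest position.

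Tmem30c, of a family that partners with lipid flippases, had 17, 113 and 68 counts. Wdr27, a WD repeat protein, had 13, 83 and 47, and Sult2b1, which sulfates cholesterol, had 11, 69 and 41. These genes were thus lower in Pde6ccpfl1 than in both other libraries. Without the highest position the log2 ratio was -2.22 for Tmem30c, -1.91 for Wdr27 and -2.58 for Sult2b1. Adarb2, B3gnt9, Myo18b, Rasgef1b, Usp13, Rapsn, Tmem30c, Trdn, Wdr27, Sult2b1 and Dnaaf3 overlap an annotated gene on the other strand, and whether counting used strand is not given in the sources used here. Dnaaf3 also overlaps Tnni3 on its own strand, so that its counts are uncertain.

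A few very abundant genes, chosen after their values were seen, separated the plates well by well. The 20 most abundant genes took 25.9% of counts in Pde6ccpfl1 and 26.7% in Cnga3-/-, and 1 of them was at least 2-fold higher, 2 were at least 2-fold lower and 17 lay within 2-fold. Smtnl1 (chromosome 2, 84811176 to 84822652), a smoothelin-like protein known from muscle, was the higher one. It had 8095 counts in Pde6ccpfl1, 2952 in Cnga3-/- and 8 in wildtype. The wells of Pde6ccpfl1 lay at a median of 26949 CPM (14617 to 43616) and those of Cnga3-/- at 8409 (4199 to 18376). Of the 61 Pde6ccpfl1 wells, 60 were above the highest Cnga3-/- well, so that the plates barely overlapped. The ratio was 3.12 (2.99 to 3.25), and Pde6ccpfl1 was the higher plate at all 61 shared positions.

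Il18 and a long noncoding RNA lay the other way. Il18 (chromosome 9, 50554827 to 50581840), a cytokine of the interleukin 1 family released by the inflammasome, had 2171 counts in Pde6ccpfl1, 10085 in Cnga3-/- and 339 in wildtype. Pde6ccpfl1 wells lay at a median of 6811 CPM (2861 to 12444) and Cnga3-/- wells at 30740 (15395 to 44092), with no overlap. Its level was 4.08-fold lower in Pde6ccpfl1 (3.90 to 4.28). The gene 7420701I03Rik, an intergenic noncoding RNA on chromosome 12 (11047813 to 11078742), had 2136, 12307 and 4021 counts in Pde6ccpfl1, Cnga3-/- and wildtype. Its wells lay at 6947 CPM (3428 to 11765) against 37392 (19594 to 55573), again with no overlap, and the level was 5.07-fold lower (4.84 to 5.31). Wildtype wells, at 14549 CPM (7993 to 23080), lay between the mutants. Smtnl1, Il18 and 7420701I03Rik were counted in every kept mutant well. Il18 overlaps Bco2 and Tex12 on the other strand.

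Kif23, a kinesin of the central spindle in dividing cells, was the most abundant gene of the motor list and behaved in another way. It had 9007, 6608 and 27 counts in Pde6ccpfl1, Cnga3-/- and wildtype, and a single position, F01, held 4709 of the first (52.3%) and 3751 of the second (56.8%). Its median well was at 14674 CPM (8863 to 336622) against 8729 (4402 to 339303). The log2 ratio was 0.63 with all wells and 0.80 without that position, so that it stayed within 2-fold.

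**Figure D3:**
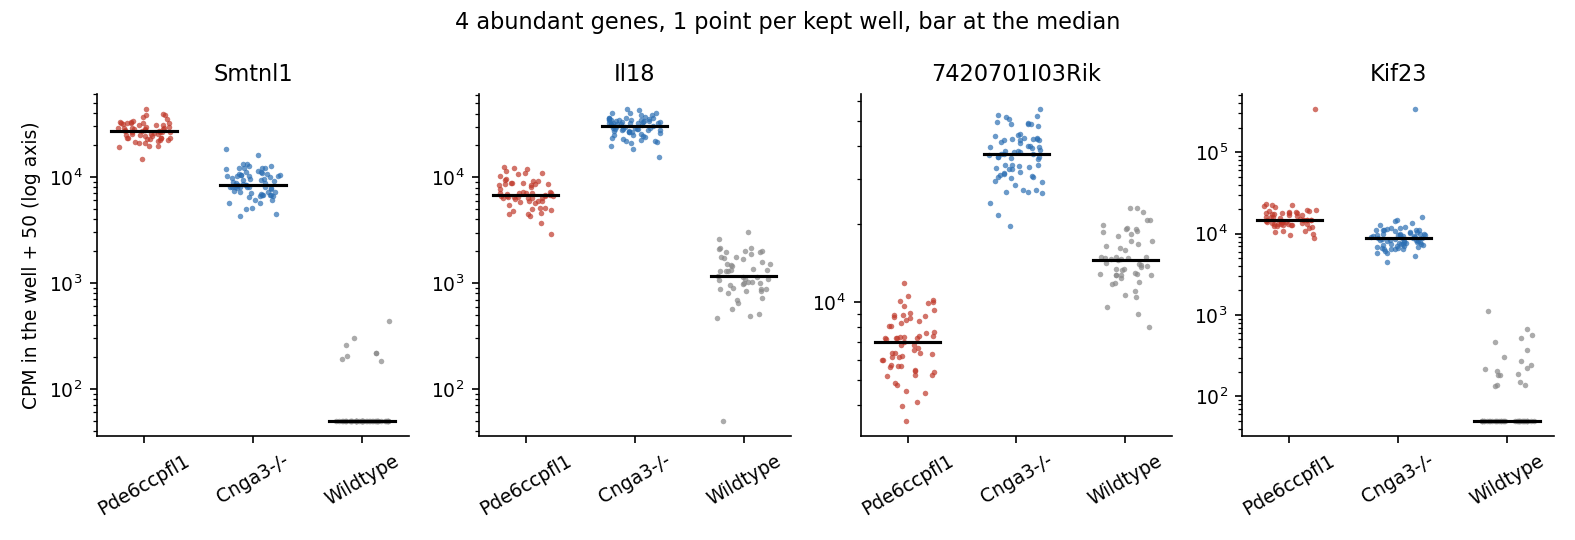
CPM per kept well plus 50 (y, log axis) of Smtnl1, Il18, 7420701I03Rik and Kif23 on the 3 plates, with 1 point per well and a bar at the median. Il18 and 7420701I03Rik wells of the mutants do not overlap, Smtnl1 wells barely do, and 1 well per mutant plate stands apart for Kif23.

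Cone phototransduction genes as a group were at a like level in both mutants. Summed over 27 genes they had 464 counts in Pde6ccpfl1 and 549 in Cnga3-/-, a ratio of 0.961 (0.848 to 1.09), against 239 counts in wildtype. Of 8 members that could be compared, Gngt2 was at least 2-fold higher, Opn1sw was at least 2-fold lower and 6 lay within 2-fold, with a median log2 ratio of -0.12 beside 0.07 for all compared genes. Single members went both ways. Of all compared genes, 6.44% were at least 2-fold higher, 9.33% at least 2-fold lower and 84.2% within 2-fold. These shares apply to every list below, and 1 or 2 members past 2-fold are not read as a result about a list.

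Among the opsins, Opn1sw had 27 counts in 20 of 61 Pde6ccpfl1 wells, 63 in 34 of 70 Cnga3-/- wells and none in wildtype. At most 4 and 7 counts lay in a well, and median wells were at 0 on both plates. Its log2 ratio was -1.04 (-1.74 to -0.37). It lay at the edge of the 2-fold limit, at -0.82 over the shared positions and -0.70 without its highest position. After thinning, 16.7% of Pde6ccpfl1 and 30.8% of Cnga3-/- wells had a count. Opn1mw, the middle-wavelength opsin, had 21 counts against 17, with a log2 ratio at 0.49 (-0.50 to 1.5), so that no difference was detectable at this depth. Divided by exon length, Opn1sw lay at 35.8 and 73.4 CPM per kb and Opn1mw at 45.6 and 32.4.

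Of the transducin subunits, Gnat2, the alpha subunit, had 20 counts in each mutant and none in wildtype. Gnb3, the beta subunit, had 16 against 30, with a log2 ratio at -0.72 (-1.70 to 0.20). Gngt2, the gamma subunit, had 43 counts in 26 Pde6ccpfl1 wells and 22 in 19 Cnga3-/- wells, a log2 ratio of 1.15 (0.38 to 1.96). Over the shared positions it was 1.27, and in even-numbered wells alone it was 0.67. Of the 3 subunits, Gngt2 alone had a counting interval that did not include equal levels.

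Among the genes that end the light response, 2 below the count minimum stood apart. Arr3 had 27 counts in 17 of 61 Pde6ccpfl1 wells, 5 in 3 of 70 Cnga3-/- wells and 3 in wildtype, which is 91.5 CPM (60.3 to 133) against 14.9 (4.84 to 34.8). Its log2 ratio was 2.62 (1.22 to 4.35), and Pde6ccpfl1 was higher at 17 positions against 3. Rgs9, which speeds the shut-off of transducin, lay the other way, with 3 counts in 3 wells of Pde6ccpfl1, 28 in 13 wells of Cnga3-/- and none in wildtype, which gave a log2 ratio of -3.04 (-5.40 to -1.34). Its highest Cnga3-/- well, with 5 of the 28 counts, lay at a position not kept in Pde6ccpfl1. Rgs9bp, its membrane anchor, had 4 counts in each mutant. Gnb5, the partner of Rgs9, had 44 against 33, with a log2 ratio at 0.60 (-0.08 to 1.30). Grk1, the opsin kinase, had 31 against 39, and Rcvrn, recoverin, which restrains that kinase, had 12 against 15. Their log2 ratios of -0.15 (-0.87 to 0.57) and -0.14 (-1.36 to 1.06) included 0.

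For the cyclic GMP enzymes and channels, Pde6h had 43 counts against 56 and a log2 ratio of -0.20 (-0.80 to 0.40). Gucy2e and Gucy2f, the photoreceptor guanylate cyclases, had 17 against 15 and 7 against 7, and Guca1a, their calcium-binding activator, had 18 against 15. Pde6c, at 2.28 and 5.02 CPM per kb, was near the level of olfactory receptors in both mutants, as was Cnga3 in Pde6ccpfl1, at 2.57. Cngb3, the other channel subunit, had no count in Pde6ccpfl1, with an exact upper limit of 12.5 CPM, and 6 counts, or 17.9 CPM, in Cnga3-/-. The exchanger Slc24a2 had 27 against 31, and Slc24a1, of rods, had 14 against 7. Apart from Cnga3, the intervals of those counted in both mutants included equal levels.

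**Figure D4:**
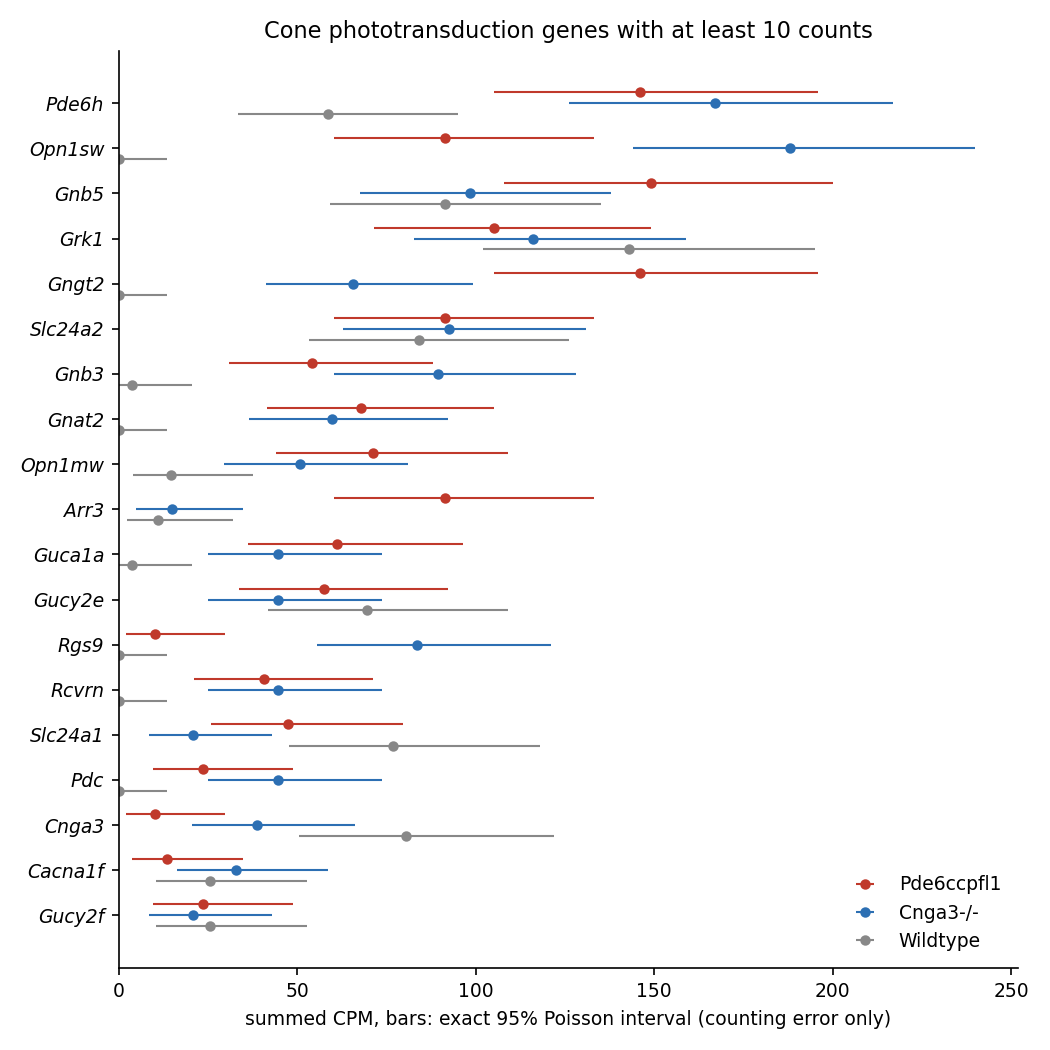
Summed CPM (x) of cone phototransduction genes reported here with at least 10 counts in the mutants, with exact 95% Poisson intervals, for Pde6ccpfl1, Cnga3-/- and wildtype. Arr3 and Gngt2 are higher in Pde6ccpfl1, Opn1sw and Rgs9 are higher in Cnga3-/-, and most other mutant intervals overlap.

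Retinoid cycle genes, which regenerate the chromophore and clear its by-products, were higher in Pde6ccpfl1 as a sum. They had 768 counts against 507 and 644 in wildtype, a ratio of 1.72 (1.54 to 1.93). All 4 compared members lay on the higher side, 1 of them at least 2-fold, beside 6.44% of all compared genes. Their median log2 ratio was 0.74. Abca4, the retinaldehyde transporter of photoreceptor discs, had 541, 359 and 493 counts in Pde6ccpfl1, Cnga3-/- and wildtype, at 153 and 89.0 CPM per kb in the mutants. Its median well was at 1457 CPM (0 to 16910) against 812 (0 to 20308), and its log2 ratio was 0.78 (0.58 to 0.97). Rdh12, a retinol dehydrogenase of photoreceptors, had 133, 64 and 104 counts, for a log2 ratio of 1.24 (0.80 to 1.69). For both genes Cnga3-/- was the low library and wildtype was near Pde6ccpfl1. Without these 2 genes, which held 86.0% of the counts, the ratio of the sum was 1.27 (0.938 to 1.73). Rbp3, the retinoid carrier between cell layers, had 28 against 23, and Awat2, an acyltransferase, had 30 against 21.

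Rod genes as a sum were lower in Pde6ccpfl1, at 324 counts against 516, a ratio of 0.714 (0.620 to 0.822). This was 0.930 when each gene was taken without its highest position. The median well of the list was at 986 CPM (0 to 8985) in Pde6ccpfl1 and 1028 (0 to 33145) in Cnga3-/-. That highest Cnga3-/- well lay at a position not kept in Pde6ccpfl1, so that the sum does not describe the plate as a whole. Of 7 compared members, 1 was at least 2-fold lower and none higher, beside 9.33% and 6.44% of all compared genes. Their median log2 ratio was -0.48. The lower one was Cabp4, a calcium sensor at photoreceptor synapses, with 27, 92 and 49 counts in Pde6ccpfl1, Cnga3-/- and wildtype, a log2 ratio of -1.58 (-2.26 to -0.95) and 39 of the 92 counts in 1 well. Samd7, a repressor that acts in rods, had 33 against 63. The rod genes Sag, Pde6a and Pde6g had log2 ratios of -0.08, -0.51 and 0.03, each with an interval that included 0. Gnat1, rod transducin, was below the count minimum, with 10 against 39 counts, 9 of the 39 in that same well.

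Photoreceptor transcription factors held 801 against 731 counts, a ratio of 1.25 (1.13 to 1.38) that rested on Rora, an orphan receptor that regulates cone opsins. Rora had 566, 440 and 60 counts in Pde6ccpfl1, Cnga3-/- and wildtype and a log2 ratio of 0.55 (0.37 to 0.73). Onecut2 had 70 against 74. Without both, the ratio was 0.865 (0.702 to 1.06), and none of the 3 compared members was 2-fold apart.

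Genes of degeneration were examined next, since loss of phosphodiesterase and loss of the channel act on cyclic GMP in different ways. The 49 genes of cyclic GMP, calcium and calpain had 1025 against 1040 counts, a ratio of 1.12 (1.03 to 1.22). All 8 compared members lay within 2-fold, with a median log2 ratio of 0.04. Itpr1, a calcium release channel, had 108 against 89 counts, and Ryr1, the other kind of release channel, had 177 against 192. Vdac1, of the outer mitochondrial membrane, had 95 against 122.

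Cell death genes and histone modifying enzymes had 1000 against 1153 counts, a ratio of 0.986 (0.905 to 1.07), against 1564 in wildtype. None of the 4 compared members was 2-fold apart. Parp1, which makes poly(ADP-ribose) at damaged DNA, had 489, 441 and 673 counts in Pde6ccpfl1, Cnga3-/- and wildtype and a log2 ratio of 0.33 (0.15 to 0.52). Casp6, an executioner caspase, had 220, 399 and 563 counts, in 67.2% and 81.4% of mutant wells, and a log2 ratio of -0.67 (-0.92 to -0.43). Parg, which removes poly(ADP-ribose), had 33 against 29, and Hdac4, a histone deacetylase, had 26 in each. None of the 12 compared members of these groups was thus 2-fold apart, beside 84.2% of all compared genes within 2-fold. The other members had too few counts to be compared, so that this says little about the groups.

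Stress genes of the endoplasmic reticulum had a ratio of 1.28 (1.14 to 1.44), which was 1.06 (0.883 to 1.28) without Creld2 and Eif2a. Creld2, a folding factor of the unfolded protein response, had 336 against 221 counts, with a log2 ratio at 0.79 (0.54 to 1.04). Ern1, the sensor IRE1, had 37 against 27, and Herpud1, of protein degradation, had 37 against 41. Oxidative stress genes had 122 against 121 counts, with no member that could be compared. Immediate early and heat shock genes had a ratio of 1.04 (0.896 to 1.22). In that list Egr1, an early response factor, had 19 against 42 counts, 13 of the 42 at positions not kept in Pde6ccpfl1, and Hsp90ab1, a chaperone, had 159 against 153.

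Photoreceptor injury, cytokine and growth factor genes had a ratio of 0.350 (0.337 to 0.364), which came from Il18. Without Il18 and Stat3 it was 1.08 (0.978 to 1.19). Of 10 compared members, Osmr was at least 2-fold higher and Il18 at least 2-fold lower, beside 6.44% and 9.33% of all compared genes. The 10 members had a median log2 ratio of -0.14. Stat3, the transcription factor downstream of the cytokine receptor gp130, had 514, 409 and 292 counts in Pde6ccpfl1, Cnga3-/- and wildtype, a log2 ratio of 0.52 (0.33 to 0.71). Tgfb1, a growth factor, had 59 against 104, with a log2 ratio at -0.63 (-1.12 to -0.16).

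Genes of nuclear movement were of interest because the series concerns cone migration. Nuclear migration and microtubule motor genes had a ratio of 1.46 (1.42 to 1.5), which was 0.852 (0.766 to 0.947) without Kif23 and Klc1, a light chain of kinesin 1. Of 11 compared members, 3 were at least 2-fold lower and none higher, beside 9.33% and 6.44% of all compared genes, with a median log2 ratio of -0.16. Without the highest position 2 were lower and 1 higher. Clasp1, which stabilises microtubule plus ends, had 18, 69 and 30 counts in Pde6ccpfl1, Cnga3-/- and wildtype and a log2 ratio of -1.75 (-2.59 to -0.99). It was -1.24 without its highest position, where 27 Cnga3-/- and 2 Pde6ccpfl1 counts lay. Map1b, a microtubule-associated protein of growing axons, had 18, 63 and 30 counts, at most 3 and 7 in a well, and a log2 ratio of -1.62 (-2.47 to -0.85). Odd-numbered wells gave -2.95 and even-numbered wells -0.82. Dctn4, a dynactin subunit, had 16 against 37 counts and a log2 ratio of -1.02, which was 0.00 by the mean CPM over wells. Kif5a, a neuronal kinesin, lay the other way within 2-fold, with 49 against 31.

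Actin and myosin genes had a ratio of 1.57 (1.53 to 1.62) and of 1.27 (1.18 to 1.36) without Smtnl1 and Shroom2. Of 12 compared members, 2 were at least 2-fold higher (Smtnl1 and Tmsb10) and none lower, beside 6.44% and 9.33% of all compared genes. Their median log2 ratio was 0.41. Shroom2, which links actin to the apical junctions of epithelia, had 3460, 5128 and 5081 counts in Pde6ccpfl1, Cnga3-/- and wildtype and a log2 ratio of -0.38 (-0.44 to -0.32). Myl9, a regulatory myosin light chain, had 50 against 29 counts, and Myo18a had 43 against 31.

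Adhesion and guidance genes had a ratio of 1.10 (1.01 to 1.19), and the 12 compared members had a median log2 ratio of 0.42. Of these members, 1 was at least 2-fold higher, beside 6.44% of all compared genes. That one was Robo1, a receptor for Slit guidance cues, with 183 counts in 46 Pde6ccpfl1 wells, 99 in 35 Cnga3-/- wells and 133 in wildtype. Its median well was at 365 CPM (0 to 9866) against 45.2 (0 to 8394), and its log2 ratio of 1.07 (0.71 to 1.44) was 1.02 without its highest position. The cadherins Cdh4 and Cdh11 had 24 against 52 and 33 against 21 counts. Lrp8, a receptor for reelin, had 32 against 22, and Sdk1, a synaptic adhesion protein of the retina, had 75 against 62.

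At the synapse Pde6ccpfl1 was on the lower side as a sum, whereas the interval of the cilium sum included equal levels. Ribbon synapse genes had a ratio of 0.854 (0.774 to 0.942), and their 9 compared members a median log2 ratio of -0.21. Of these members 1, Cabp4, was at least 2-fold lower, beside 9.33% of all compared genes. Bsn, bassoon, had 64 against 106 counts, Pclo, piccolo, had 20 against 38, and Stx3, the syntaxin of ribbon synapses, had 23 against 46. Over the shared positions the log2 ratio of Stx3 moved from -0.81 to -0.24 and that of Pclo from -0.74 to -0.17, since 17 and 14 of their Cnga3-/- counts lay elsewhere. Rims1 and Nrxn2, of the release site and of synaptic adhesion, had 130 against 116 and 102 against 96. Outer segment and cilium genes had a ratio of 0.912 (0.826 to 1.01). The median log2 ratio of their 10 compared members was 0.05, beside 0.07 for all compared genes. Of these members 1 was at least 2-fold lower, beside 9.33% of all compared genes. This was Pcdh15, a protocadherin of calyceal processes, with 16 against 44 counts, for a log2 ratio of -1.27 (-2.20 to -0.42). The highest Cnga3-/- well of Pcdh15, with 8 of the 44 counts, also lay at a position not kept in Pde6ccpfl1. Adgrv1, of the periciliary membrane complex, had 44 against 41 counts, Ift122, of ciliary transport, had 87 against 90, and Rpgrip1, of the connecting cilium, had 63 against 68.

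In energy metabolism, nuclear genes of oxidative phosphorylation had a ratio of 1.02 (0.903 to 1.14). Without Uqcrh and Atp5b it was 1.27 (1.11 to 1.45). Uqcrh, the hinge protein of complex III, had 36 counts in 23 Pde6ccpfl1 wells, 155 in 51 Cnga3-/- wells and 111 in wildtype, which gave a log2 ratio of -1.92 (-2.49 to -1.39). It was -1.42 over the shared positions, and 46 of its Cnga3-/- counts lay in 1 well. Atp5b, of the ATP synthase, had 42 against 34. Mitochondrially encoded genes had a ratio of 1.03 (0.841 to 1.25) at under 0.07% of counts in each library, with mt-Nd1 and mt-Co1 at 50 against 44 and 26 against 28. Glycolysis and lactate genes had a ratio of 1.21 (1.03 to 1.42), with Hk1 at 33 against 23 counts and Gpi1 at 38 against 28.

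Genes of protein turnover and synthesis had ratios of their sums from 1.11 to 1.28. Autophagy and lysosome genes had a ratio of 1.16 (1.04 to 1.31). None of 4 compared members was 2-fold apart, and their median log2 ratio was 0.29. Nbr1, an autophagy receptor, had 126 against 89, Atg7, of autophagosome formation, had 126 against 109, and Map1lc3b had 62 against 63. Proteasome and ubiquitin genes had a ratio of 1.28 (1.15 to 1.42), led by Ube2n, a ubiquitin conjugating enzyme, with 516 against 396. None of 5 was 2-fold apart, and their median log2 ratio was 0.47. Cytosolic ribosomal proteins had a ratio of 1.11 (0.995 to 1.24), and their 5 compared members a median log2 ratio of 0.81, beside 0.07 for all compared genes. Of 5 compared, Rps14 was at least 2-fold higher (42 against 22 counts) and Rps19 at least 2-fold lower (16 against 48). Over all compared genes these shares were 6.44% and 9.33%. Sex-linked genes had 103 against 121 counts, with Xist at 15 against 19 and Uty at 7 against 8. Divided by exon length, Xist lay at 2.83 and 3.16 CPM per kb and Uty at 2.42 and 2.44. Both were below the olfactory receptor level of 4.17 and 3.61, so that these counts do not settle the sex of the animals.

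**Figure D5:**
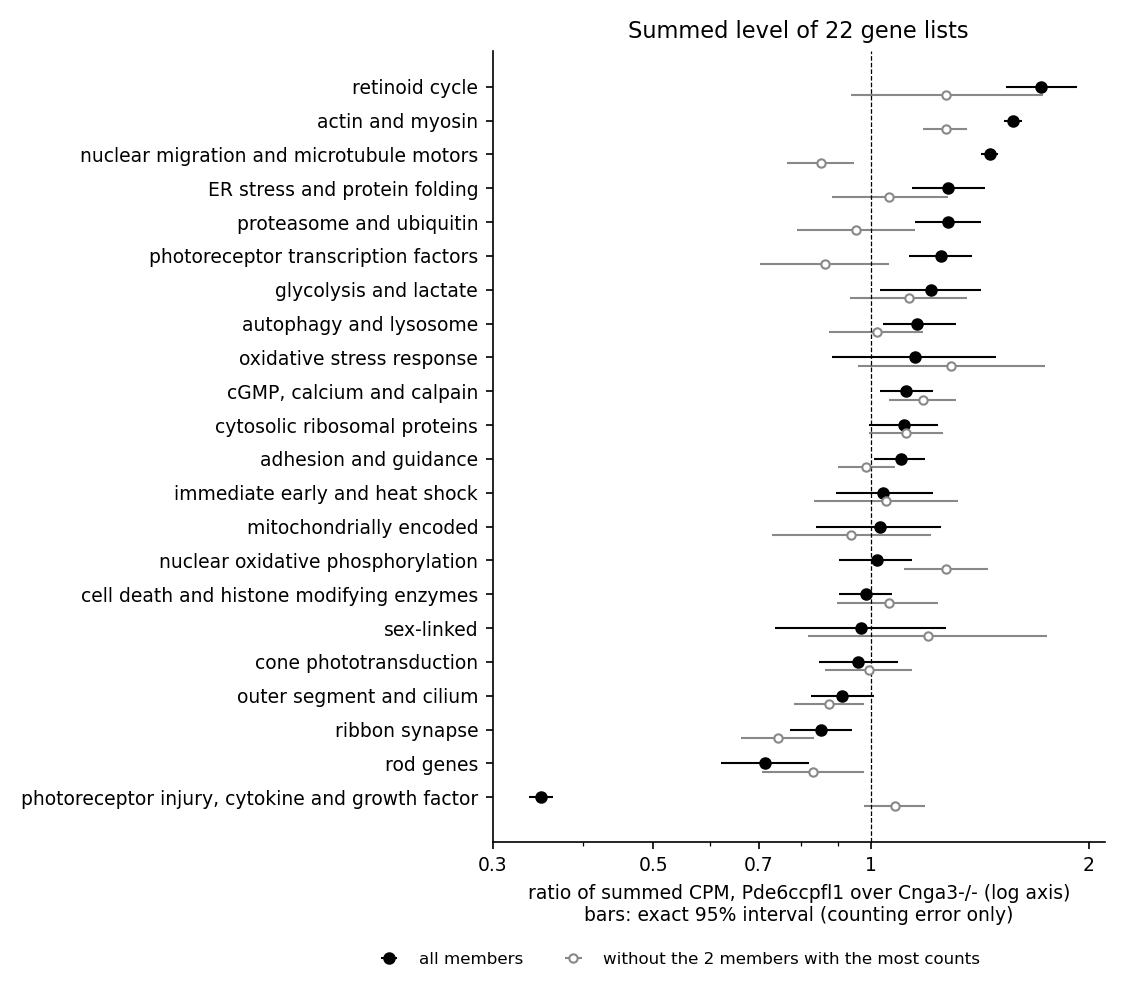
Ratio of summed CPM, Pde6ccpfl1 over Cnga3-/- (x, log axis), of 22 gene lists with exact 95% intervals, for all members (filled) and without the 2 members with the most counts (open). When 2 genes are left out, 8 lists cross 1: injury (0.350 to 1.08), motors (1.46 to 0.852), proteasome (1.28 to 0.953), transcription factors (1.25 to 0.865), adhesion (1.10 to 0.986), cell death (0.986 to 1.06), mitochondrially encoded (1.03 to 0.938) and sex-linked (0.968 to 1.20).

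Genes with a low correlation between the plates over the shared positions were looked at apart, a step chosen after the values were seen. Positions not kept in Pde6ccpfl1 do not enter this correlation. A gene with many Cnga3-/- counts at those positions could thus have both a low correlation and a lower ratio. The share of lower genes given here can therefore be set in part by the choice of genes. The correlation was under 0.2 for 239 compared genes. Of these, 11 (4.60%) were at least 2-fold higher in Pde6ccpfl1 and 50 (20.9%) at least 2-fold lower, with a median log2 ratio of -0.16, beside 6.44% and 9.33% of all compared genes. Without the highest position 22 were higher and 41 lower. Their median share of counts at 1 position was 15.1%. The 50 lower genes had a median of 37.6% of their Cnga3-/- counts at positions not kept in Pde6ccpfl1, and 34 of them remained 2-fold lower over the shared positions. Among the 11 higher genes all remained, and they include Gngt2, Tmsb10, Mir124a-1hg and Rps14. Tpp1, a lysosomal peptidase, also belonged to them, with 58, 29 and 4 counts in Pde6ccpfl1, Cnga3-/- and wildtype and a log2 ratio of 1.19. Lower genes that hardly moved over the shared positions include Ccna1 and Retreg1. Ccna1, a cyclin, had 13, 51 and 2 counts and a log2 ratio of -1.79 by both measures. Retreg1, of autophagy of the endoplasmic reticulum, had 22, 72 and 13 counts and a log2 ratio of -1.52, and -1.51 over those positions. Cyld, a deubiquitinase, shows the opposite case, with 74, 453 and 261 counts, where 277 of the 453 lay at positions not kept in Pde6ccpfl1 and the log2 ratio moved from -2.43 to -1.15.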

How the data were processed

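GFP-positive cones of 3 mouse lines were sorted to 1 plate per line, and 1 deposited table holds whole-number counts per gene and well, not normalized. The authors counted with featureCounts and give the build GRCh38, per the submitters' processing notes. That build is human, the gene names are mouse symbols, and 30477 (98.1%) match GENCODE M21 of GRCm38, which gave positions and exon lengths by symbol. The aligner, the use of strand and the handling of molecular identifiers are not given in the sources used here. All columns belong to 1 of the 3 libraries.

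Counts of kept wells were summed per library and scaled to CPM, with exact 95% intervals of the ratio conditional on the total count, in Python 3.11.15 with scipy 1.17.1, tested on simulated data. The simulated counts held counting error alone, so that this test checks the calculation and not the intervals under spread between wells or positions. A count of 0 was set to 3 for a ratio. No p-value was computed, since each genotype has 1 library. No doublet caller was run, since wells were sorted as single cells. Shares of wells used 1 draw of 1400 counts per well with Clopper-Pearson intervals.

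Named were the 12 highest and 12 lowest genes at least 2-fold apart with the same direction in the mean CPM over wells and the share of wells, and at least 1.5-fold apart in all 4 pairings of odd and even wells. The rule skips predicted genes, pseudogenes and those encoded in mitochondria. A few genes that these rules name are not reported here, and among the 24 the next gene took the place. Since odd and even wells are different plate positions, these pairings also compare positions. Also named were targeted genes, cone and rod markers, sex-linked genes, cone phototransduction genes with at least 10 counts, and in each list the 4 compared members with the largest ratios and the 2 with the most counts. The 22 lists, 13 marker sets and the comparison itself were chosen with earlier results of these data known. The alternatives were other filters on wells and genes, other scalings, among them TMM factors of edgeR 4.0.16, mean CPM, thinned wells, odd or even wells, shared positions, wells with a cone marker and, added after seeing the data, each gene without its highest position.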

Additional observations from a re-analysis of the deposited data

How the results depend on the processing

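Of the 24 named genes, all remained at least 2-fold apart in the same direction without a filter on wells, with the stricter filter, with every scaling of the summed counts, without the 5 deepest wells, in wells with a cone marker, over shared positions and without the highest position. By mean CPM 10 of the 12 highest and 12 of the 12 lowest did, in thinned wells 7 and 12, in odd-numbered wells 11 and 12, and in even-numbered wells 12 and 11. The naming rule itself used the mean CPM and the odd and even wells, so that these settings say little about stability. The 24 were also picked as extremes of these same ratios. A scaling moves all genes alike and by little, and the wells left out held only 8245 and 4749 counts. That the 24 stayed 2-fold apart under other scalings or without the filter is therefore no sign of stability either. The count of genes at least 2-fold higher, 109, was 67 with median-of-ratios scaling, 30 in thinned wells, 61 in odd-numbered and 68 in even-numbered wells, 173 in wells with a cone marker, 190 without the highest position, 795 with a minimum of 10 counts and no minimum share, and 28 with a minimum of 200 counts. The count at least 2-fold lower, 158, was 33 in thinned wells, 90 in odd-numbered and 62 in even-numbered wells, 1111 with the minimum of 10 counts and 21 with that of 200. The median log2 ratio, 0.07, was 0.12 by mean CPM, -0.12 with median-of-ratios scaling, -0.02 scaled to oxidative phosphorylation and ribosomal genes, 0.22 in thinned wells, 0.12 without the 5 deepest wells, 0.11 in odd-numbered and 0.13 in even-numbered wells, 0.15 without the highest position, -0.01 with at least 10 counts and 0.18 with at least 200. Fewer counts or fewer wells enter thinned, odd and even wells, and the other causes were not tested.

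Directions turned for single values. Dctn4 went to 0.00 by mean CPM. The ratio of transcription factors was 0.898 in wells with a cone marker and 0.865 without its 2 members with the most counts. That of cyclic GMP, calcium and calpain genes was 0.986 with median-of-ratios scaling, and that of adhesion and guidance was 0.965 there, 0.968 in thinned wells and 0.986 without 2 members. Without 2 members the ratio was 0.852 for motors, 1.08 for injury genes and 0.953 for proteasome genes, and the ratios of cell death (1.06), mitochondrially encoded (0.938) and sex-linked genes (1.20), all near 1 with every member, crossed 1 as well. No paired analysis was possible because each genotype has 1 library. The median well of 3796 and 4056.5 counts limits what can be seen for genes under 50 counts.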
